A study of Mus musculus with 5 samples.

Results

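The complement genes described here are 9 genes chosen by name from the 21835 genes of the deposited table: *C1ra* and *C1s1* (initiating proteases), *C4b*, *C3* and *Cfb* (the components cut or assembled during activation), *Serping1*, *Cd55* and *Cd59a* (regulators) and *C3ar1* (a receptor). The RNA came from murine lung cancer-associated fibroblasts (CAFs), cultured in medium with serum and infected with a lentivirus that was either empty (CAF-vec, 2 samples) or carried the genes of miR-429, miR-200a and miR-200b (3 samples, CAF-200). Both groups share the tissue, the culture and the viral infection, and the labels describe G418 selection for more than 2 weeks. Each group is a single transduced population as far as the sources used here say, and nothing states that its samples came from separate infections or animals, so *p* values measure only the spread between these samples. The labels and the methods differ on the resistance gene of the vector and on the cells infected (CAFs or normal lung fibroblasts), the methods describe RNA in triplicate where 2 CAF-vec samples were analysed here, and the strain and age of the mice are not given in the sources used here.

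Complement is a cascade of plasma and tissue proteins that marks surfaces for removal. In the classical pathway, C1q binds its target and the proteases C1r and C1s then cut C4 and C2 to form an enzyme that cuts C3. Mannose-binding lectin and its MASP proteases enter at the same point, and factor B supports an alternative loop that amplifies C3 cleavage. The inhibitor C1-INH (*Serping1*) and the membrane proteins CD55 and CD59 hold the cascade back on host cells, and the C3a fragment signals through the receptor encoded by *C3ar1*. Most circulating complement is made by the liver, while fibroblasts are known to make C1r, C1s, C3 and C1-INH locally.

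Values are in CPM, the read counts of each sample as the authors scaled them to a common total, and the depth behind each value is unknown. Fold-changes are differences of mean log2(CPM + 0.5) between CAF-200 and CAF-vec, which understates those of genes near 0.5 CPM or below. A gene was tested where at least 2 samples reached 0.5 CPM, which 12175 genes did, and it passed the test where limma's *p*, adjusted by Benjamini-Hochberg over these genes, was under 0.01. The SD across genes of the log2 difference between replicates was 0.49 in CAF-vec and 0.19 to 0.20 in CAF-200. The columns of the groups also differ at the low end. The 3 CAF-200 samples list the same 6127 genes at 0, with 0 genes at 0 in some of them only, and each lists 816 to 1108 genes above 0 but under 0.005 CPM. The CAF-vec samples list 7898 and 7413 genes at 0, of which 1205 are at 0 in 1 of them alone, and 0 genes in that low range. Whether the groups' values were made in the same way is not given in the sources used here, and the part of this in the fold-changes, the CAF-200 spread and the *p* values was not tested. Of the fibroblast markers, 10 of 11 reached 0.5 CPM in at least 1 sample and *Fap* did not, and 4 of them rose in CAF-200 (*Acta2*, *Dcn*, *Lum* and *Thy1*) and 0 fell, with summed CAF-vec levels of 7583 to 14241 CPM against 7262 to 7963 CPM in CAF-200. The mean of *Acta2* rose 6.16-fold. The paper reported the other direction for its product α-SMA by immunostaining, and lower mRNA of most CAF markers by RT-qPCR. The reason for this difference was not tested. *Col1a1* (log2 fold-change -0.91), *Col1a2* (-0.75) and *Pdgfrb* (-0.25) lay lower in CAF-200 without overlap, at limma adjusted *p* values of 0.0982, 0.112 and 0.0776, and *Col3a1* lay higher without overlap (log2 fold-change 1.02, limma adjusted *p* 0.0542). All 8 epithelial markers stayed under 0.5 CPM in all samples, and of 6 endothelial and 5 mesothelial markers *Kdr* and *Msln* fell and 0 rose. The paper detected *Kdr* in the CAFs by RT-qPCR and reported it lower with miR-200, so its fall is not a measure of endothelial cells. *Zeb1*, an established target of miR-200, was at 43.5 and 50.7 CPM in CAF-vec and at 37.8, 37.5 and 34.1 CPM in CAF-200 (log2 fold-change -0.36, limma adjusted *p* 0.0504), and *Zeb2* overlapped between the groups (log2 fold-change -0.23, limma adjusted *p* 0.374). In bulk RNA, a change in the number of expressing cells and a change in RNA per cell cannot be told apart.

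Of the 9 complement genes, 4 were higher in CAF-200. *C3* and *C4b*, the components at the centre of the cascade, and *Cd55* and *Cd59a*, the membrane regulators, passed the test, while 0 of the 9 genes passed it in the lower direction, and 5 were higher and 2 lower at an unadjusted *p* under 0.05 (limma), as 17.3% and 27.6% of all genes were. Among all genes tested, 4.45% passed in the higher and 5.57% in the lower direction (542 and 678 genes, which became 720 and 543 when each sample was centred on its median). These 4 genes also had a log2 fold-change beyond 1, as 2.37% of all genes did in that direction and 2.35% in the other at the same adjusted *p*. At an adjusted *p* under 0.05, which 11.9% of all genes passed as higher and 18.6% as lower, *C3ar1* joined them and *C1s1* passed as lower. The groups did not overlap for 7 of the 8 complement genes tested, against 61.6% of all genes, with 5 higher (24.3% of all genes) and 2 lower (37.3%) in CAF-200. *Cfb* was too low to be tested, and *Cd55* and *C3ar1* reached the minimum only through CAF-200, where they were higher, so their presence among the tested genes already depended on that group. With any 1 of the CAF-200 samples left out, 0 of the 9 genes passed (limma), the 4 genes had adjusted *p* values from 0.0283 to 0.0453 (limma), and 5 genes were higher at an unadjusted *p* under 0.05. Of all 12175 genes, 0 or 1 passed as higher and 0 as lower in these fits.

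**Figure D1:**
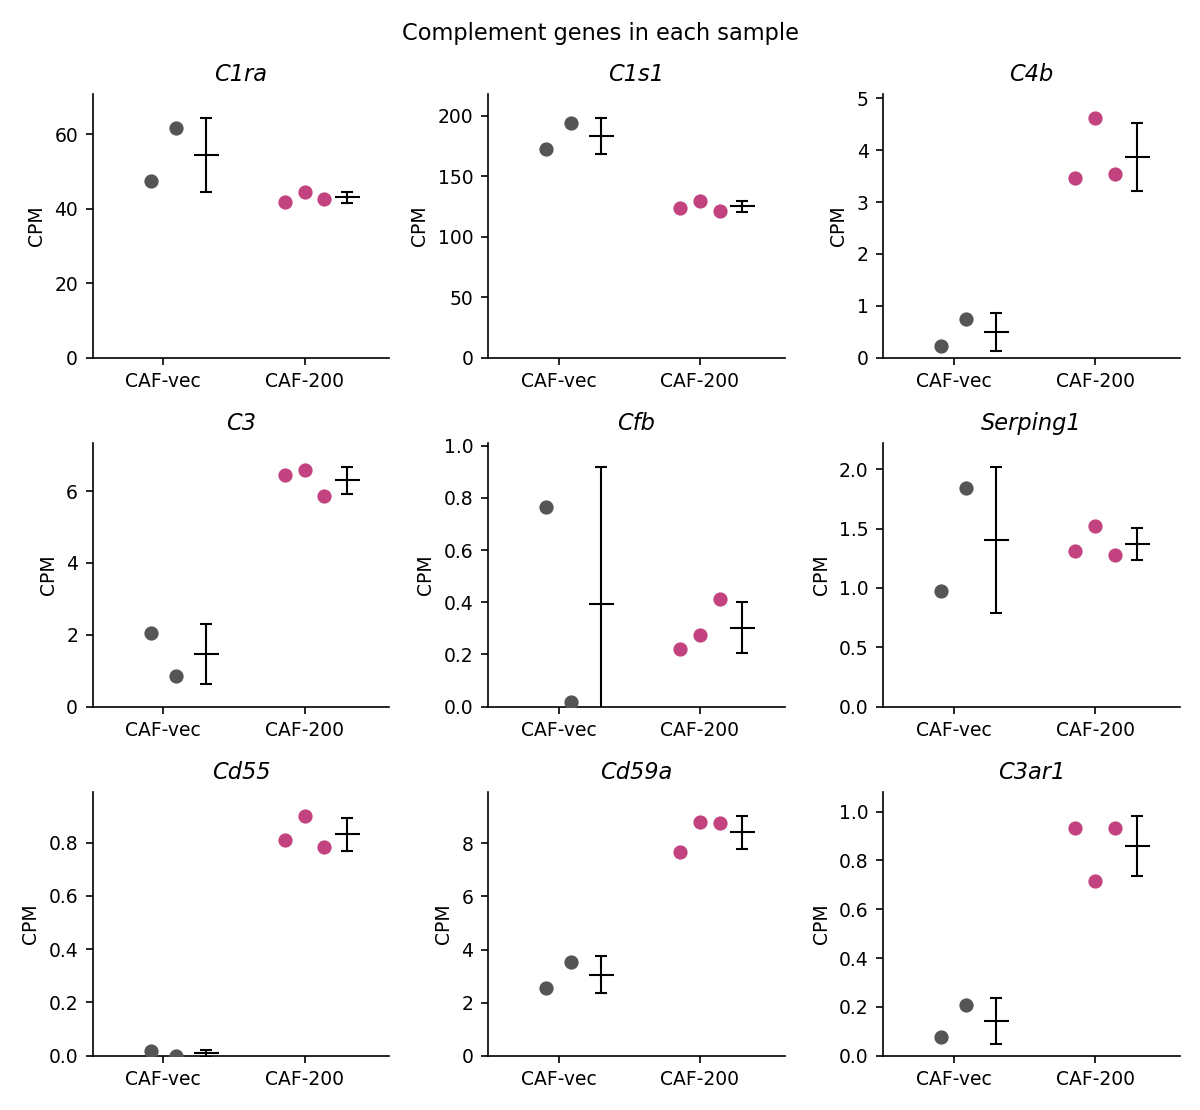
CPM of the 9 complement genes in each sample (grey, CAF-vec, 2 samples; magenta, CAF-200, 3 samples), with a linear axis from 0 for each gene and the mean ± SD beside the points; for *Cfb* the part of the CAF-vec bar below 0 is not drawn. The CAF-200 points of *C3*, *C4b*, *Cd55*, *Cd59a* and *C3ar1* lie above both CAF-vec points, those of *C1ra* and *C1s1* lie below both, and those of *Cfb* and *Serping1* lie between them.

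The initiating proteases were the most abundant of the 9 transcripts per kilobase, and for each the CAF-200 samples were the lowest. *C1s1* (ENSMUSG00000038521, chromosome 6 of GRCm38, 124530345 to 124542359), which encodes C1s, the protease that cuts C4 and C2, was at 172.8 and 194.1 CPM in CAF-vec and at 124.0, 129.6 and 121.4 CPM in CAF-200. Its mean was 183 ± 15.1 CPM (SD, n = 2) against 125 ± 4.20 CPM (SD, n = 3), and its log2 fold-change of -0.55 (SE 0.0944, 95% interval -0.78 to -0.32) had an adjusted *p* of 0.0115 (limma), just short of the threshold. With either CAF-vec sample left out, its adjusted *p* was 0.000445 or 0.000746 (limma), in fits that assume the remaining CAF-vec sample to vary like the CAF-200 samples and that call 16.0% or 30.9% of all genes lower.

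*C1ra* (ENSMUSG00000055172, chromosome 6, 124512405 to 124523443), which encodes C1r, the protease that activates C1s, was at 47.5 and 61.6 CPM in CAF-vec and at 41.9, 44.6 and 42.7 CPM in CAF-200. The gap between the groups was smaller than that between the CAF-vec samples, with a log2 fold-change of -0.33 (95% interval -0.64 to -0.01, limma adjusted *p* 0.105). Without CAF-vec 1 its log2 fold-change was -0.51 (limma adjusted *p* 0.00134) and without CAF-vec 2 it was -0.14 (limma adjusted *p* 0.125), where the same fits call 16.0% and 30.9% of all genes lower. *C1ra* and *C1s1* are neighbours in a cluster on chromosome 6 that also holds a near-identical copy of each, and those copies were low: *C1rb* was at 0.0205 to 0.137 CPM and *C1s2* at 0.0660 to 0.142 CPM over the 5 samples. Reads shared with such a copy could be split between them. An antisense gene, *Gm16567*, overlaps *C1s1*, and the strand setting of the counting is not given in the sources used here.

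C1r and C1s act together in a complex of paired subunits. Per kilobase of the longest coding transcript, *C1s1* stood at 3.68 and 3.19 times the level of *C1ra* in the CAF-vec samples and at 2.99, 2.94 and 2.88 times in the CAF-200 samples. The ratio was thus above 1 in all samples and was lowest in the CAF-200 samples.

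*C4b* encodes C4, the first substrate of C1s. *C4b* (ENSMUSG00000073418, chromosome 17, 34728380 to 34743882) was at 0.229 and 0.751 CPM in CAF-vec and at 3.45, 4.63 and 3.54 CPM in CAF-200. Every CAF-200 sample thus lay far above both CAF-vec samples, and the mean rose 7.91-fold from 0.490 ± 0.369 to 3.87 ± 0.655 CPM (mean ± SD over 2 and 3 samples), for a log2 fold-change of 2.19 (SE 0.266, limma adjusted *p* 0.00522). It ranked 48 from the top among all genes tested, and its adjusted *p* was 0.0397 without a minimum (limma). Against CAF-vec 1 alone the mean of CAF-200 was 16.9-fold higher and against CAF-vec 2 alone 5.16-fold. Its log2 fold-change was 1.72 with 1 CPM added and 2.90 with 0.1 CPM. *C4a*, a near-identical copy on the same chromosome, was not analysed here, and reads of the copies may be counted under *C4b*.

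*C3* encodes the component on which all pathways converge and from which C3a and C3b are cut. *C3* (ENSMUSG00000024164, chromosome 17, 57203970 to 57228136) was at 2.05 and 0.864 CPM in CAF-vec and at 6.46, 6.58 and 5.86 CPM in CAF-200. The CAF-200 samples lay close together and above both CAF-vec samples, which differed 2.37-fold from each other. The mean rose from 1.46 ± 0.840 to 6.30 ± 0.385 CPM (mean ± SD over 2 and 3 samples), a ratio of 4.32 and a log2 fold-change of 1.86 (SE 0.269, limma adjusted *p* 0.00771), which ranked 78 from the top. The adjusted *p* was 0.0551 without a minimum and 0.0144 with the replicate block (limma). Against CAF-vec 1 alone the ratio was 3.07 and against CAF-vec 2 alone 7.29.

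*Cfb* (ENSMUSG00000090231, chromosome 17, 34856374 to 34862518), which encodes factor B of the alternative pathway, was at 0.765 and 0.0179 CPM in CAF-vec and at 0.221, 0.273 and 0.411 CPM in CAF-200. The CAF-vec samples thus bracketed all CAF-200 samples, and only CAF-vec 1 reached 0.5 CPM. Fitted without the minimum, its log2 fold-change was -0.020 (95% interval -1.33 to 1.29, limma), so changes of up to about that size in either direction were not detectable. *Gm20547*, which spans *Cfb* and its neighbour *C2* on the same strand, was listed at 0 in all samples.

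Of the 3 regulators, 2 passed the test. *Cd59a* (ENSMUSG00000032679, chromosome 2, 104095801 to 104115354) encodes CD59, which blocks assembly of the membrane attack complex. It was at 2.57 and 3.54 CPM in CAF-vec and at 7.69, 8.80 and 8.77 CPM in CAF-200. All CAF-200 samples lay above both CAF-vec samples, and the mean rose 2.75-fold from 3.06 ± 0.690 to 8.42 ± 0.632 CPM (mean ± SD over 2 and 3 samples), with a log2 fold-change of 1.34 (SE 0.155, limma adjusted *p* 0.00466). Its adjusted *p* was 0.0326 without a minimum and 0.0146 with the replicate block (limma). Of the 4 genes that passed the test, it was the most abundant per kilobase and the only 1 to reach 1 CPM in every sample. Its copy *Cd59b* was listed at 0 in CAF-vec and reached at most 0.161 CPM in CAF-200.

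*Cd55* (ENSMUSG00000026399, chromosome 1, 130439027 to 130462744) encodes decay-accelerating factor, which breaks up the enzymes that cut C3. It was listed at 0.0186 and 0 CPM in CAF-vec and at 0.811, 0.902 and 0.783 CPM in CAF-200, so it was at or near 0 in CAF-vec and under 1 CPM in all samples. Its log2 fold-change was 1.39 (SE 0.152, limma adjusted *p* 0.00413, or 0.0221 with the replicate block), and the size depends on the amount added, from 0.86 with 1 CPM to 3.10 with 0.1 CPM. The neighbouring copy *Cd55b* was listed at 0 in all samples, and an antisense gene, *Gm16083*, overlaps *Cd55*.

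*Serping1* (ENSMUSG00000023224, chromosome 2, 84765387 to 84775444), whose product C1-INH inactivates C1r, C1s and the MASP proteases, was at 0.971 and 1.84 CPM in CAF-vec and at 1.31, 1.52 and 1.27 CPM in CAF-200. The CAF-200 values lay between the CAF-vec values, and the log2 fold-change was 0.01 (95% interval -0.55 to 0.57, limma adjusted *p* 0.983). It was -0.33 without CAF-vec 1 and 0.34 without CAF-vec 2.

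*C3ar1* (ENSMUSG00000040552, chromosome 6, 122847138 to 122856161), the receptor for C3a, was at 0.0751 and 0.209 CPM in CAF-vec and at 0.931, 0.715 and 0.932 CPM in CAF-200. The groups did not overlap, and 0 of the CAF-vec samples reached 0.5 CPM. The log2 fold-change was 1.09 (SE 0.181, 95% interval 0.64 to 1.53, limma adjusted *p* 0.0106), which missed the threshold, and it ran from 0.70 with 1 CPM added to 2.03 with 0.1 CPM. The adjusted *p* was 0.00230 without CAF-vec 2, 0.0121 without CAF-vec 1 and 0.0448 to 0.0587 with a CAF-200 sample left out, and it was 0.00944 with median centring and 0.00665 without a variance trend (limma). *C3ar1* is best known from myeloid cells. The 10 leukocyte markers summed to between 13.8 and 15.4 CPM in CAF-vec, against between 18.3 and 18.8 CPM in CAF-200, and their part in the *C3ar1* result was not tested. Of these markers *Lyz2* (log2 fold-change 1.91) and *S100a8* (1.81, at 0.5 CPM or more only in CAF-200) rose, *Cd68*, *Csf1r* and *Cd14* were at 2.25 to 6.70 CPM and gave no call, and *Ptprc*, which all leukocytes carry, *Adgre1* and *Cd3e* were at most at 0.0404 CPM.

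**Figure D2:**
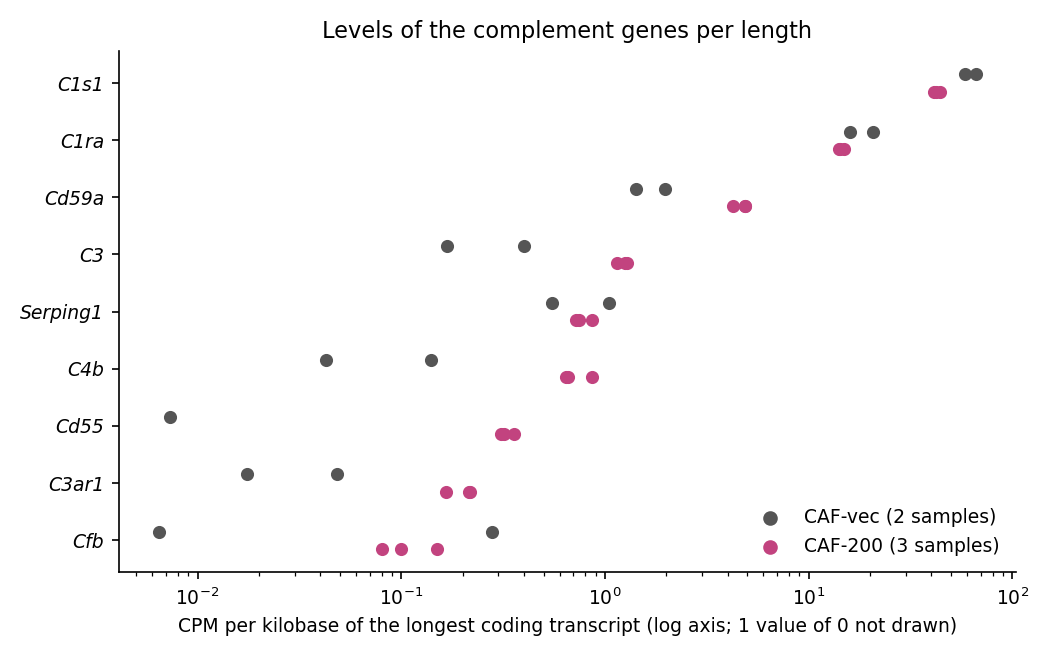
CPM per kilobase of the longest annotated coding transcript (log axis) for the 9 complement genes, ordered by the CAF-200 mean; each point is a sample (grey, CAF-vec; magenta, CAF-200), and the value of 0 for *Cd55* in CAF-vec 2 is not drawn. *C1s1* and *C1ra* stand at the top in both groups, and *Cd59a*, *C3*, *C4b*, *Cd55* and *C3ar1* are shifted to the right in CAF-200.

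Levels can be set against each other only per length. On that scale, in CPM per kilobase, the order in CAF-200 was *C1s1* (42.4 ± 1.43, SD, n = 3), *C1ra* (14.4 ± 0.465), *Cd59a* (4.66 ± 0.350), *C3* (1.23 ± 0.0751), *Serping1* (0.774 ± 0.0750), *C4b* (0.720 ± 0.122), *Cd55* (0.329 ± 0.0244), *C3ar1* (0.200 ± 0.0290) and *Cfb* (0.110 ± 0.0357). Among neighbours in this order, *Serping1* and *C4b* overlapped and the others did not. In CAF-vec the first 3 places were the same, and *Serping1* (0.796 ± 0.349 CPM per kilobase, SD, n = 2) stood above *C3* (0.284 ± 0.164), *Cfb* (0.142 ± 0.192), *C4b* (0.0910 ± 0.0686), *C3ar1* (0.0330 ± 0.0220) and *Cd55* (0.00367 ± 0.00519). There the neighbours from *C3* to *C3ar1* overlapped each in turn. Per kilobase, *C3* thus stood below *Serping1* in both CAF-vec samples and above it in all CAF-200 samples. In CPM, *C3* was above *Serping1* in CAF-vec 1 (2.05 against 0.971) and below it in CAF-vec 2 (0.864 against 1.84). The order thus depends on the transcript lengths used.

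The other genes of the cascade give the setting. Of 53 further complement genes in the table, 18 were listed at 0 in all samples, including *C1qa*, *C1qb* and *C1qc*, which encode the C1q that C1r and C1s attach to, *Cfd*, which activates factor B, and *C6*, *C7*, *C8a*, *C8b* and *C9* of the membrane attack complex. Another 19 were above 0 but under 0.5 CPM in all samples, and 16 were tested. The only gene of these 16 to pass the test was *Masp1*, and 0 passed in the lower direction, beside 4.45% and 5.57% of all genes, with 4 higher and 6 lower at an unadjusted *p* under 0.05 (limma), beside 17.3% and 27.6%. The median log2 fold-change of the 16 was -0.14, beside -0.094 over all genes tested.

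*Masp1* (ENSMUSG00000022887, chromosome 16, 23449417 to 23520815, with *Rtp4* and *Gm45338* on the other strand), which encodes proteases of the lectin pathway related to C1r and C1s, was at 191.5 and 249.9 CPM in CAF-vec and at 388.2, 393.2 and 402.7 CPM in CAF-200. It rose in all CAF-200 samples relative to both CAF-vec samples (log2 fold-change 0.85, SE 0.134, limma adjusted *p* 0.00930), although the adjusted *p* was 0.0161 with quantile normalization, 0.0105 without a variance trend, 0.0470 without a minimum, 0.0447 with the replicate block and 0.0501 to 0.0590 with a CAF-200 sample left out (limma). Per kilobase of the longest coding transcript, *Masp1* stood at 0.611 and 0.709 times the level of *C1s1* in the CAF-vec samples and at 1.73, 1.67 and 1.83 times in the CAF-200 samples, so on that scale *Masp1* stood below *C1s1* in both CAF-vec samples and above it in all CAF-200 samples. In CPM without scaling by length, *Masp1* stood above *C1s1* in all samples, with *C1s1* at 172.8 and 194.1 CPM in CAF-vec. The order per kilobase thus depends on the transcript lengths used, and which transcripts were expressed was not examined.

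**Figure D3:**
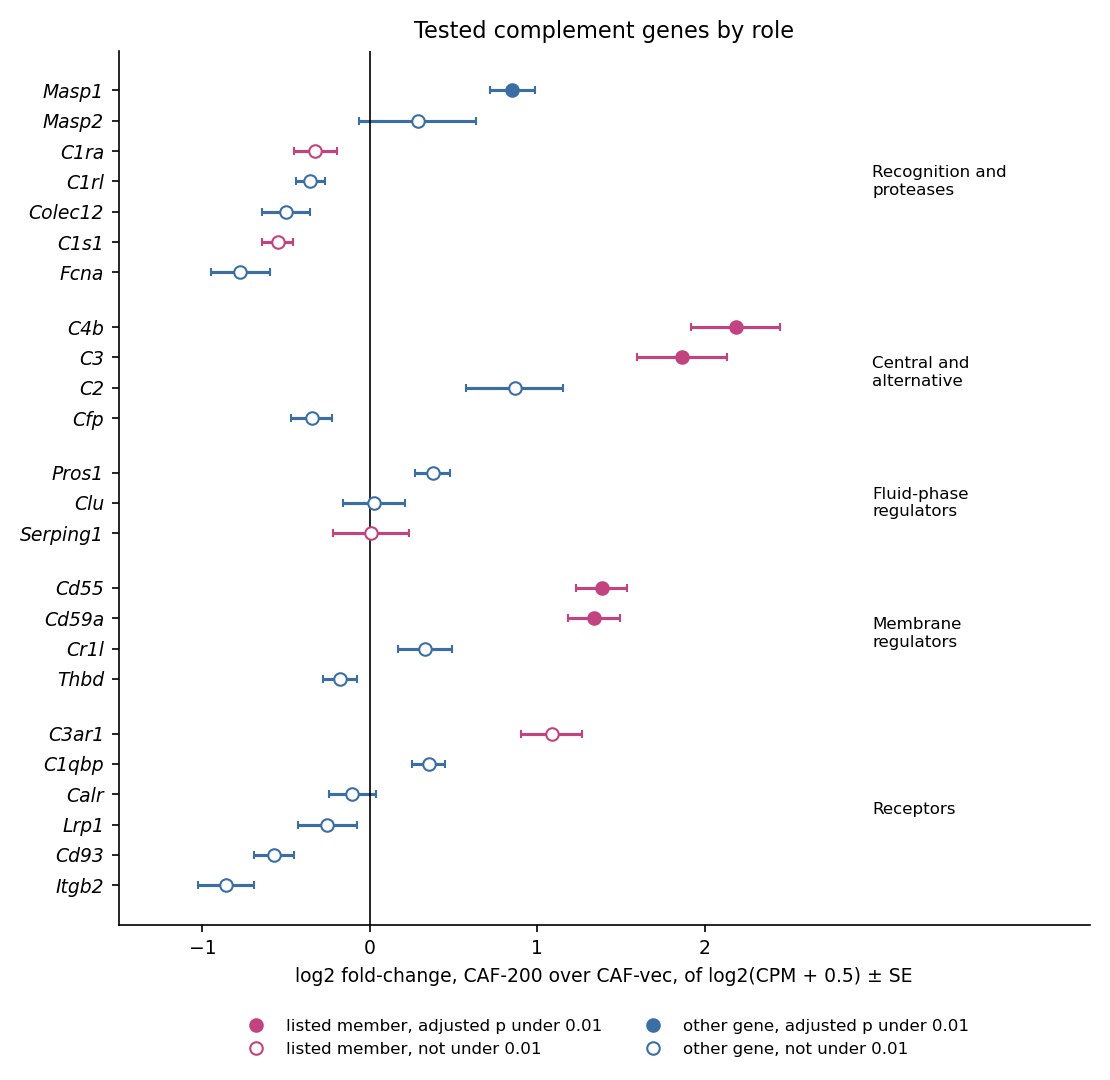
Log2 fold-change (CAF-200 over CAF-vec) of mean log2(CPM + 0.5) ± standard error for the 24 complement genes tested, grouped by role; magenta, the listed genes; blue, other complement genes; filled, adjusted *p* under 0.01 (limma). The filled points are *Masp1*, *C4b*, *C3*, *Cd55* and *Cd59a*, all to the right of 0, while *C1s1*, *C1ra* and most other recognition genes lie to the left.

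Of the 7 recognition genes and proteases tested, *C1ra* and *C1s1* included, 5 lay lower in CAF-200 without overlap, as 37.3% of all genes did, and 0 passed the test as lower. *C1rl*, a C1r-like protease, had a log2 fold-change of -0.36 (limma adjusted *p* 0.0305), *Colec12*, a scavenger receptor of the collectin family, -0.50 (limma adjusted *p* 0.0463) and *Fcna*, a ficolin, -0.77 (limma adjusted *p* 0.0248). *Fcna* reached the minimum only in CAF-vec, where it was higher. *Masp2*, the second MASP gene, overlapped between the groups (log2 fold-change 0.29, limma adjusted *p* 0.552). Beside *C3* and *C4b*, *C2*, whose product joins C4b in cutting C3, was at 0.346 and 0.228 CPM in CAF-vec and at 0.633, 1.55 and 0.756 CPM in CAF-200 (log2 fold-change 0.86, limma adjusted *p* 0.0708), and it reached the minimum only in CAF-200. *Cfp*, which encodes properdin, lay lower (log2 fold-change -0.35, limma adjusted *p* 0.0823).

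The membrane regulators other than *Cd55* and *Cd59a* gave no call. *Cr1l*, which encodes Crry, a rodent regulator of C3, was at 57.4 and 82.3 CPM in CAF-vec and at 85.0, 88.8 and 85.8 CPM in CAF-200 (log2 fold-change 0.33, 95% interval -0.06 to 0.73, limma adjusted *p* 0.163). Per kilobase its mean in CAF-200 was 31.2 CPM, above the 4.66 CPM of *Cd59a* and the 0.329 CPM of *Cd55*. *Cd46* stayed under 0.5 CPM in all samples. Among receptors, *Itgb2*, the shared chain of complement receptors 3 and 4, had a log2 fold-change of -0.86 (limma adjusted *p* 0.0163), and its partner chains *Itgam* and *Itgax* were at most at 0.0893 CPM. *C5ar1*, the receptor for C5a, was at most at 0.0706 CPM. *C1qbp*, which encodes a binding protein of C1q, was higher without overlap (log2 fold-change 0.35, limma adjusted *p* 0.0453), and *Cd93*, a membrane protein first described as a C1q receptor, was lower without overlap (log2 fold-change -0.57, limma adjusted *p* 0.0189). Among the fluid-phase regulators, *Pros1*, which encodes protein S, was likewise higher without overlap (log2 fold-change 0.38, limma adjusted *p* 0.0449), and *Clu* overlapped between the groups (log2 fold-change 0.03, limma adjusted *p* 0.923).

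Interferon gamma, interleukin-6 family cytokines, interleukin-1 and TNF are known to induce complement genes. Of 14 receptors and transcription factors of these pathways, all were tested and *Il1r1*, the receptor of interleukin-1, was the only gene to pass the test, which 4.45% of all genes passed as higher. It was at 11.1 and 13.0 CPM in CAF-vec and at 19.1, 19.6 and 18.8 CPM in CAF-200 (log2 fold-change 0.65, limma adjusted *p* 0.00930), a call that was lost with a CAF-200 sample left out (adjusted *p* from 0.0536 to 0.0576, limma), with the replicate block (0.0520), without a minimum (0.0319) and without a variance trend (0.0107). In the lower direction 0 passed at this threshold and 2 did at an adjusted *p* under 0.05 (limma), namely *Il6ra* (log2 fold-change -0.52) and *Nfkb1* (-0.50), where 18.6% of all genes did. *Osmr*, the receptor of oncostatin M (log2 fold-change 0.66, limma adjusted *p* 0.0714), and *Tnfrsf1a*, a receptor of TNF (0.37, limma adjusted *p* 0.0866), were higher without overlap. *Stat3*, which carries the signal of interleukin-6, overlapped between the groups (log2 fold-change -0.28, limma adjusted *p* 0.361).

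**Figure D4:**
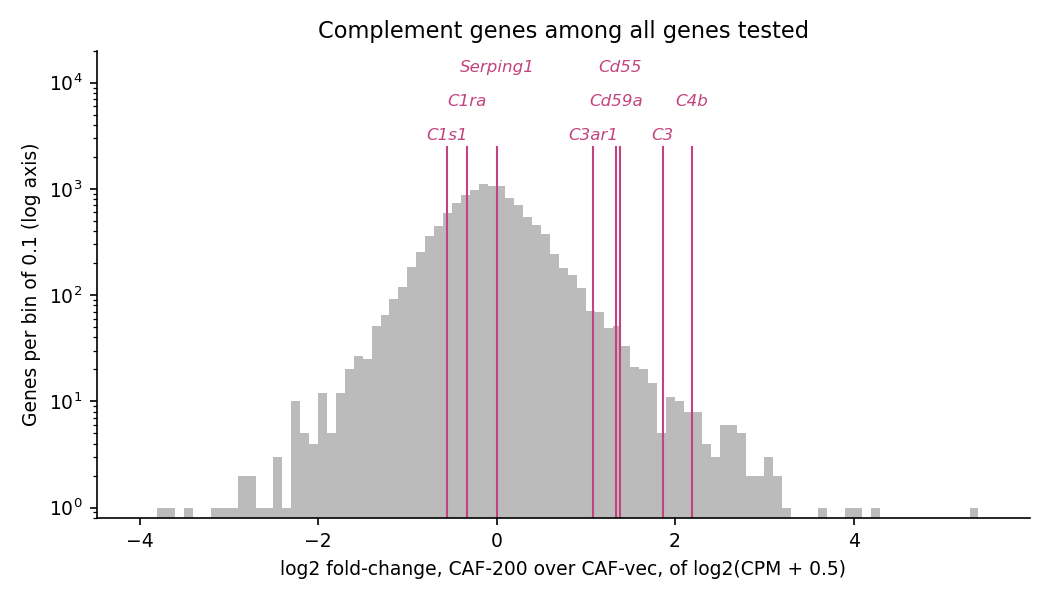
Histogram of the log2 fold-changes (CAF-200 over CAF-vec) of all 12175 genes tested, in bins of 0.1 with a log count axis, with the 8 tested complement genes as magenta lines. *C1s1* and *C1ra* lie in the left shoulder, *Serping1* at the centre, and *C3ar1*, *Cd59a*, *Cd55*, *C3* and *C4b* in the right tail.

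By the smallest difference in pattern, the genes most like *C3* over the 5 samples were *Gstm4*, *Socs2*, *Cck*, *Ccl7* and *Tlcd2*. The measure was the root mean square difference of log2(CPM + 0.5) after centring each gene on its mean, and it ran from 0.129 for *Gstm4* to 0.213 for *Tlcd2*. Like *C3*, all 5 were lower in CAF-vec 2 than in CAF-vec 1 and higher than both in each CAF-200 sample. *Cck*, which encodes the peptide hormone cholecystokinin, was at 309.0 and 181.7 CPM in CAF-vec and at 752.5, 673.0 and 767.1 CPM in CAF-200, and *Ccl7*, a chemokine for monocytes, was at 57.7 and 35.4 CPM and at 152.5, 140.9 and 107.6 CPM.

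A miRNA binds 3′-UTRs mainly through its seed, bases 2 to 8, and the complement genes were searched for the reverse complement of that stretch. The mature sequences of the overexpressed miRNAs (RefSeq, GRCm38.p6) are shown because they define the search, 5′ to 3′ with the seed in capitals. miR-429 has the same seed as miR-200b, and that of miR-200a differs.
miR-200a-3p: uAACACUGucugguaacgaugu
miR-200b-3p: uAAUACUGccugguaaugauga
miR-429-3p: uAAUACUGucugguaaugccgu

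In the longest 3′-UTR that GENCODE M21 annotates for each gene, 3 of the 9 complement genes held a match to either seed (CAGTGTT for miR-200a, CAGTATT for miR-200b and miR-429), as did 30.3% of the tested genes with a 3′-UTR. *C3ar1* held 6 matches within 2685 bases, a number reached by 26 of 12060 genes, or 0.216%, whose median 3′-UTR length was 6490 bases. Of those 26 genes, 0 passed the test in the higher and 1 in the lower direction (limma), and 13 had a log2 fold-change above 0, among them *C3ar1*. The sites of *C3ar1* that lie closest to each other, on the minus strand of chromosome 6 of GRCm38, are shown with the match in capitals, followed by the single sites of *Cd55* and *C1ra*.
C3ar1, chr6:122849619-122849625: gcccatgggacCAGTGTTttaacaggcct
C3ar1, chr6:122849589-122849595: cttgtttccatCAGTGTTaagttttacct
C3ar1, chr6:122849504-122849510: tcatctgttttCAGTATTctttttttttc
Cd55, chr1:130439660-130439666, minus strand: tataataatccCAGTATTtgggagatgaa
C1ra, chr6:124522984-124522990, plus strand: accCAGTGTTcactgggtcag

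The match in *C1ra* starts at base 4 of a 3′-UTR of 463 bases, and that in *Cd55* at base 646 of 1285. Of the 5 genes that were higher in all CAF-200 samples, *C3ar1* and *Cd55* hold matches and *C3*, *C4b* and *Cd59a* hold none, and of the 2 that were lower, *C1ra* holds a match and *C1s1* holds none. The 3′-UTRs of *C3* and *C4b* are short, with 43 and 106 bases. A match is a run of letters and not a measured binding site.

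**Figure D5:**
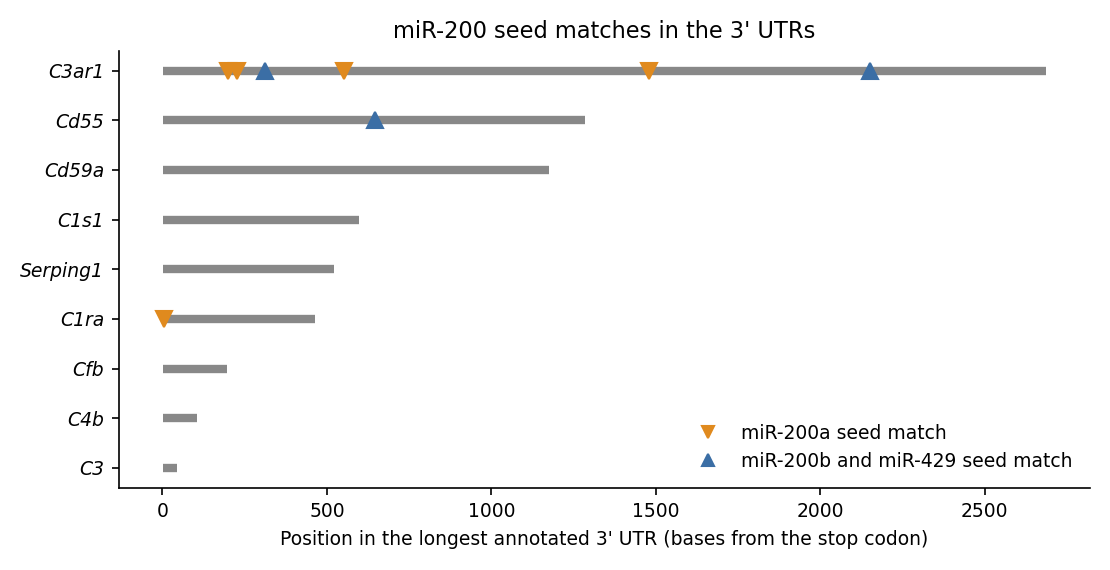
Longest annotated 3′-UTR of each complement gene drawn to scale from the stop codon (grey bars, in bases), with matches to the seeds of miR-200a (orange) and of miR-429 with miR-200b (blue). *C3ar1* holds 4 and 2, *Cd55* a single blue and *C1ra* a single orange match, and the other 6 genes hold none.

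Promoter windows of 300 bases (250 before and 50 from the annotated start, RefSeq, GRCm38.p6) were at hand for *C3*, *C1ra*, *C1s1*, *C3ar1*, *Cd55* and *Cd59a*. They were searched on both strands for TTGCNNAA (C/EBP), TTCNNNGAA (STAT), GAAA repeated after any NN (interferon-stimulated response element), CACCTG (the E-box bound by ZEB1) and the NF-kappaB decamer consensus, which 10.8%, 8.30%, 3.44%, 20.2% and 8.46% of all 32851 windows hold. *C3*, *C1ra* and *C1s1* held a C/EBP match, *C1ra* also a STAT match and *Cd59a* an interferon-type match, while the E-box and NF-kappaB letters were in none of these windows. The matches in *C3* and *Cd59a*, which passed the test, are shown with their flanks and with the match in capitals.
C3, 45 bases before the start (chr17:57228174-57228181, minus strand): ggaaactatgTTGCGAAAttttgggcag
Cd59a, 187 bases before the start (chr2:104095614-104095623, plus strand): tgtttttaaaGAAAGGGAAAatcaagagcc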

How the data were processed

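RNA of murine lung CAFs (CAF-vec, 2 samples; CAF-200, 3 samples) was sequenced from stranded poly(A) libraries. The submitters' processing notes name FastQC, cutadapt, Trimmomatic, STAR, RSEM and edgeR, with GRCm38 and mm10. The authors deposited 1 table of CPM for 21835 genes, named as TMM-scaled, whose columns sum to 999956 to 1000111. Low values were not whole multiples of a single read, so read counts and depth could not be recovered, no count test was run, and no counting interval is given.

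Gene IDs were named from GENCODE M21 (21795 matched), which also gave coordinates and 3′-UTRs. After adding 0.5 CPM and taking log2, limma 3.58.1 (R 4.3.3) was fitted with a variance trend to the 12175 genes that reached 0.5 CPM in 2 or more samples, and *p* values were adjusted over them by Benjamini-Hochberg. The call at an adjusted *p* under 0.01 follows the study's false discovery rate, while its fold limit of 1 on the log2 scale served as an alternative. The fit was also run on simulated data with a common spread per gene in both groups, unlike the spreads seen here. That run therefore does not bear on the calls. Exact permutation of 2 against 3 samples cannot give a two-sided *p* below 0.2 and was not used. Tables and plots were made with Python 3.11.15, pandas 2.3.3 and matplotlib 3.10.9.

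The members and lists were chosen with earlier results of these data known. Named in the text are the 9 genes, other complement genes and inducer genes that passed the test, near-identical copies, the 5 genes most like *C3* and *Zeb1* and *Zeb2*. Other complement, inducer and marker genes were named after their values were seen. Alternatives were the pseudocount, the minimum, quantile normalization, median centring, no variance trend, a replicate block, an adjusted *p* under 0.05 and leaving out each sample. Promoters and miRNA sequences came from RefSeq (GRCm38.p6). Windows for *C4b*, *Cfb* and *Serping1* were not used here. The labels name a neomycin vector in CAFs, and the study's methods a hygromycin vector. The value of 1 gene of the inducer list is not reported here.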

Additional observations from a re-analysis of the deposited data

How the results depend on the processing

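The log2 fold-changes of *C3*, *C4b*, *C1ra*, *C1s1*, *C3ar1*, *Cd55* and *Cd59a* kept their sign under all alternatives that could fit them. That of *Serping1*, 0.01, was -0.00035 with 1 CPM added and ran from -0.33 to 0.34 with a sample left out. The number of the 9 genes that passed in the higher direction, 4, was 1 without a minimum (*Cd55*), 1 with at least 1 CPM in every sample (*Cd59a*, with 3 genes tested), 5 with median centring or without a variance trend (*C3ar1* added), and 0 to 5 with a sample left out. The number lower, 0, was 1 at an adjusted *p* under 0.05 and 0 to 2 with a sample left out. Of all complement genes, 5 higher became 1 without a minimum, 2 with at least 1 CPM in every sample, 8 at an adjusted *p* under 0.05 and 0 to 8 with a sample left out, and 0 lower became 1 without a variance trend, 6 at an adjusted *p* under 0.05 and 0 to 5 with a sample left out. Over all genes, 1951 or 3766 passed in the lower and 1550 or 2307 in the higher direction with a CAF-vec sample left out (16.0% or 30.9% and 12.7% or 18.9%), and 0 passed in the lower and 0 or 1 in the higher direction with a CAF-200 sample left out.

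Replicate numbers 1 and 2 are shared by both groups, but no label ties a number to a batch. Deviations of same-numbered samples from their group mean correlated at 0.249 and 0.134 across genes, against 0.119 for CAF-vec 2 with CAF-200 3, a pair without a common number. The deviations of the CAF-vec samples mirror each other, so CAF-vec 2 with CAF-200 1 gave -0.249 and CAF-vec 1 with CAF-200 2 gave -0.134. These values are therefore tied to each other and cannot decide whether the numbers pair samples. With the replicate block, 1 of the 9 genes (*C4b*) and 1 of all complement genes passed in the higher direction, and the adjusted *p* was 0.0144 for *C3*, 0.0221 for *Cd55* and 0.0146 for *Cd59a* (limma). CAF-200 3 is alone at its replicate number, so the block fit takes its fold-changes from the other samples only. They equal those with CAF-200 3 left out (1.91 for *C3* in both fits), so the block gives no separate estimate. Over all genes the block left 101 higher and 70 lower. With 2 CAF-vec samples, fits without either assume the other to vary like CAF-200. The unknown depth limits what can be said of *Cfb*, *Cd55*, *C3ar1* and *C4b* near or below 0.5 CPM. The causes of these shifts were not tested.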
